A study of Daphnia magna with 15 samples.

Results

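The genes described here encode the proteins of the cytosolic ribosome of *Daphnia magna*. They were taken as every gene whose product name in the authors' annotation contains "60S ribosomal protein", "40S ribosomal protein" or "60S acidic ribosomal protein" and not "mitochondrial", and 76 of 26646 genes met this rule. Of these, 33 belong to the 40S subunit and 43 to the 60S subunit, and together they carry 68 subunit names. Whole animals of the single clone P132.85 were raised at 15 °C from hatching until parthenogenetic females carried their first clutch of eggs, and RNA was sequenced in 15 libraries, 3 for each of 5 diets. The GA animals ate the green alga *Acutodesmus obliquus* and the CY animals the cyanobacterium *Synechococcus elongatus*, and neither food contains the polyunsaturated fatty acid EPA. The GA + EPA and CY + EPA animals ate the same foods with EPA added in liposomes. The study's methods add alpha linoleic acid (so spelled there) and cholesterol to both CY diets, so a difference between CY and GA does not isolate the basal food. The CRY animals ate *Cryptomonas*, an alga that contains EPA naturally. By the study's methods, the sequenced green algal pools without EPA had received empty liposomes, although their label is GA alone, while CRY is described only in the labels. The methods and one label give pools of 5 animals for a library, and another label gives 3. No label says whether the pools came from separate vessels. The study's methods describe replicate vessels, 5 for each condition, and a pool of 5 animals for each sequenced replicate. They do not state outright that each pool came from its own vessel. The p-values measure the spread between pools, which may be partly technical.

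Each ribosome joins a small 40S subunit, which reads the mRNA, to a large 60S subunit, which forms the peptide bonds. Their protein parts are made in nearly equal numbers and assembled with ribosomal RNA in the nucleolus, and in most animals their mRNAs are short and among the most abundant in the cell. In vertebrates and flies the translation of these mRNAs is controlled through TOR signalling, so that an mRNA level is not a rate of ribosome production. No sequences are shown, since no sequence of these genes was used here.

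Each library held 18062681 to 22287959 expected counts. The members lie on 61 scaffolds of the authors' reference. On these, 48 members are the only one on their scaffold, and no scaffold holds more than 3. In the artNOG classification 61 members are in category J (translation), which holds 406 genes in all. Some libraries lay apart within their diets in these genes. GA + EPA replicate 1 differed from the GA mean by a median of -0.045 on the log2 scale over the members, whereas GA + EPA replicates 2 and 3 differed from it by -0.23 and -0.25. CY replicate 3 differed from the GA mean by -0.24, and CY replicates 1 and 2 by -0.075 and -0.11. CY + EPA replicate 1 differed by 0.020, and CY + EPA replicates 2 and 3 by -0.11 and -0.16. The medians of comparisons that use the GA + EPA libraries are therefore also given without replicate 1. Several medians are also given without the other libraries named here.

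Ribosomal protein genes held a large part of every library, and most of it in GA. Their share of the expected counts was 7.33%, 7.26% and 7.12% in the GA libraries and 7.07%, 6.10% and 5.88% in the GA + EPA libraries. It was 5.81%, 5.94% and 5.54% in CY and 6.46%, 6.20% and 5.80% in CY + EPA. In CRY it was 6.31%, 6.09% and 6.55%. Thus every GA library was above every other library, and only GA + EPA replicate 1 came close, while CY overlapped CY + EPA. The diet means were 7.24% ± 0.11 (GA), 6.35% ± 0.63 (GA + EPA), 5.77% ± 0.20 (CY), 6.15% ± 0.33 (CY + EPA) and 6.32% ± 0.23 (CRY; SD, n = 3 each), and the GA + EPA mean without replicate 1 was 5.99%.

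A pair of marker families, haemoglobins and vitellogenins, were picked to set beside this share with their values known, and both were lowest in GA. Some other lists were highest in GA. Opsins held 0.204% to 0.230% of the counts in GA and 0.076% to 0.193% in the other diets. Translation elongation factors held 1.171% to 1.256% in GA and 0.890% to 1.167% in the other diets. Haemoglobins held 0.048% to 0.094% of the counts in GA and 0.10% to 0.32% in the other diets. The 13 vitellogenin genes, which encode the yolk precursor proteins, held between 0.92% and 1.50% of the counts in GA, between 2.47% and 4.94% in GA + EPA, between 6.48% and 13.4% in CY, between 7.49% and 9.01% in CY + EPA and between 7.59% and 10.6% in CRY. With vitellogenin counts left out of the total, an alternative chosen after the values were seen, the ribosomal protein share was 7.33% ± 0.10 in GA, 6.58% ± 0.75 in GA + EPA, 6.38% ± 0.32 in CY, 6.71% ± 0.39 in CY + EPA and 6.95% ± 0.14 in CRY. On this scale GA was still above CY, CY + EPA and CRY in every library, but GA + EPA replicate 1 (7.44%) was above every GA library. The part that the eggs or the yolk genes play in the other results was not tested. In whole animals, fewer cells that express these genes and less mRNA per cell cannot be told apart.

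**Figure D1:**
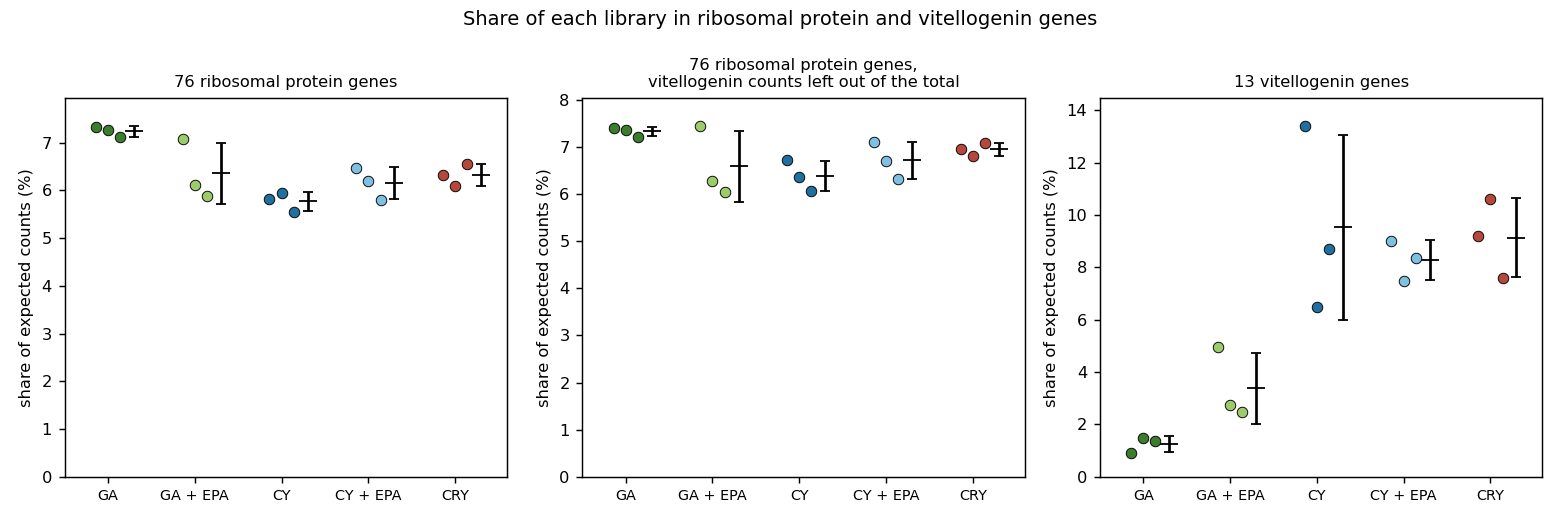
Share of the expected counts (%, y axis) in each of the 15 libraries by diet (x axis), with points for libraries and bars for the mean and SD of 3. Left, the 76 ribosomal protein genes (GA 7.12% to 7.33%, all other libraries 5.54% to 7.07%); middle, the same with vitellogenin counts left out of the total; right, the 13 vitellogenin genes (0.92% to 13.4%).

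Of the 76 members, 73 passed the filter on low counts and were tested in every comparison. The other 3 had 0 counts in all 15 libraries. These were a second model each of S18 (KZS01277.1), S20 (KZS00933.1) and L23 (KZS01029.1), all on short scaffolds, next to well expressed models of the same names. Among the 73 tested, 69 had at least 1000 counts in every library. The remaining 4 were far lower, with 23.7 to 465 counts, and comprise 3 models named L3 (KZR98885.1, KZR99909.1 and KZS01594.1) and a second model of S12 (KZS09843.1). The annotation gives the 3 L3 models spans of under 1000 bases on scaffolds of their own, and no well expressed model named L3 was among the members. RSEM splits read pairs between similar genes, and 9 members had counts that were not whole in at least 1 library, among them S15a, S23, L28, L34 and 2 of the S9 models. For these, and for all members that share a name, the level of a single copy is uncertain.

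Levels between genes can be compared only per length, here in FPKM, the authors' values per kilobase and per library total. The length used was longer than the annotated span of the gene for 34 of the 76 members, so that the order of levels depends on these lengths. The median member had a mean of 1369 FPKM over the 15 libraries, against 8.85 for the median of all 14981 genes that passed the filter over the 15 libraries, and 57 of the 200 genes with the highest mean FPKM were members. The highest were L36 (KZS15470.1, 2594 FPKM), S25 (KZS04376.1, 2577 FPKM) and L13 (KZS18901.1, 2444 FPKM), proteins of the large, the small and the large subunit. L36 and S25 differed by less than the spread between libraries. The lowest 3 were the short L3 model KZS01594.1 (6.56 FPKM), the short L3 model KZR99909.1 (16.1 FPKM) and the second S12 model (16.2 FPKM), while the first S12 model, KZS20042.1, reached 579 FPKM. Among the 69 well covered members the range was 19.8-fold, from S9 KZS20413.1 (131 FPKM) to L36. S9, a protein of the small subunit that helps keep decoding accurate, is split over 3 models, with 1398 FPKM for KZR97526.1 (a model of 211 bases), 566 FPKM for KZS20425.1 and 131 FPKM for KZS20413.1.

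**Figure D2:**
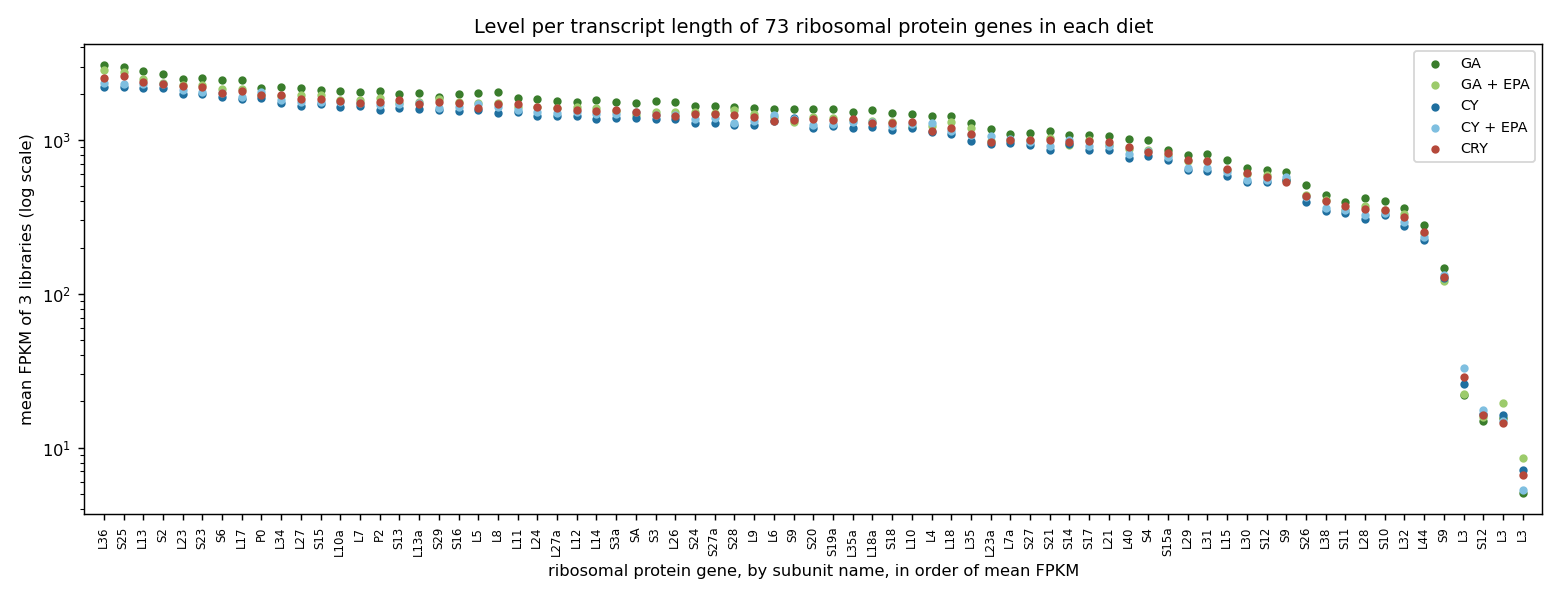
Mean FPKM of 3 libraries (y axis, log scale) for the 73 ribosomal protein genes with counts, in order of their mean over 15 libraries (x axis, subunit names), 1 colour per diet. Most genes lie in a narrow band around the median of 1369 FPKM, and the 3 short L3 models and the second S12 model lie below 35 FPKM.

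The members varied together. Pairs of members had a median correlation of 0.83 over the 15 libraries and 0.90 in deviations from the diet means. Members are therefore not independent observations, and the counts of members in each comparison below may largely repeat one shift between libraries. Over the 15 libraries, the SD of a member's log2 CPM, the counts relative to the TMM-scaled library total, had a median of 0.11. After the median member of each library was subtracted, the median SD was 0.04, and 66 of the 73 members had an SD of at most 0.1. L14 (KZS06185.1) and S18 (KZS03964.1) followed the median member most closely, with an SD of 0.02 each. The least close were the 3 short L3 models (0.38 to 0.42), the second S12 model (0.24) and the 3 S9 models (0.11 to 0.18), and next to these S14 (0.09), L4 (0.09), P0 (0.09) and L23a (0.09). The ratio of summed 40S to summed 60S counts stayed between 0.604 and 0.627 in all libraries. In CPM the diets did not share one order across members. By diet mean, GA was highest for 38 of the 73 members, CRY for 22, CY + EPA for 10, CY for 2 and GA + EPA for 1, while GA + EPA was lowest for 49, CY for 21 and GA for 3.

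**Figure D3:**
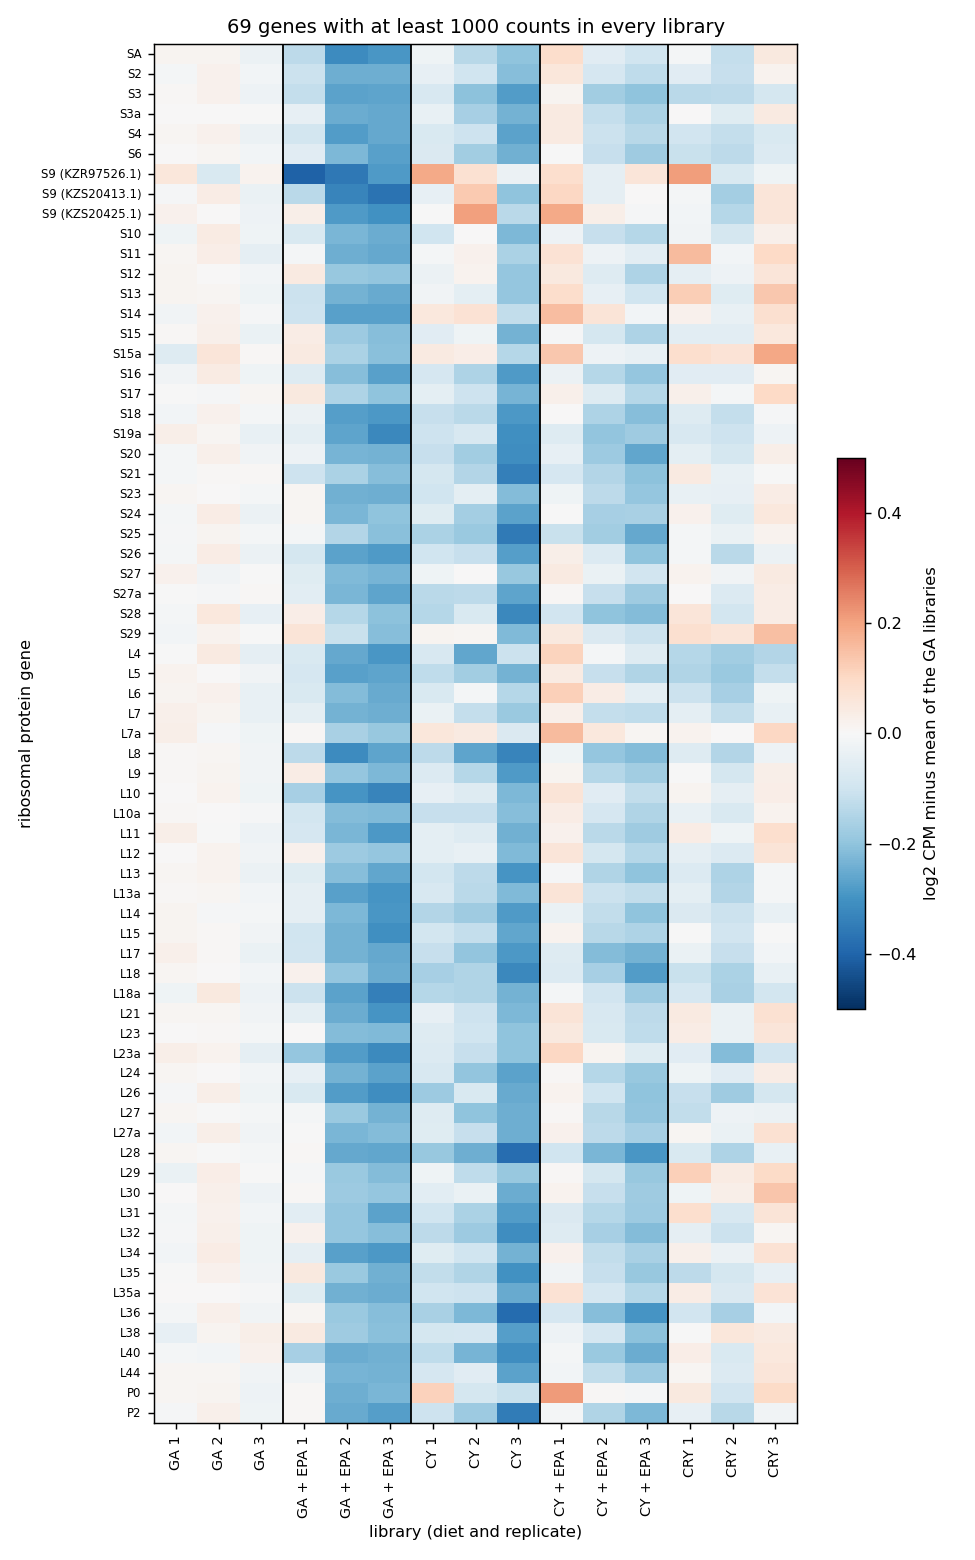
Level of the 69 members with at least 1000 counts in every library (rows) in each library (columns), as log2 CPM minus the mean of the 3 GA libraries. GA + EPA replicates 2 and 3 and CY replicate 3 are blue in nearly all rows (median differences of -0.23, -0.25 and -0.24), GA + EPA replicate 1 is much paler (-0.045), and CRY replicate 3 and CY + EPA replicate 1 are close to 0 (0.03 and 0.02).

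The comparison of GA + EPA with GA asked whether EPA on a green algal diet changes these genes. Most members had lower values with EPA, in small amounts, but none passed the test. Of 73 members tested, 70 had a negative log2 fold change, and the median was -0.17, or 11.2% lower. The median of all 14353 genes tested was 0.0003, and 49.9% of them were negative. With edgeR's quasi-likelihood test and Benjamini-Hochberg adjustment, 0 members and 0 of all genes (0%) were called at the 0.01 level, and the smallest adjusted p of a member was 0.11. At an unadjusted p under 0.05, 19 members were lower and 1 higher, against 6.95% and 11.4% of all genes. DESeq2 called 2 members lower, L23a and L10, among 2.51% of all genes. In 42 members every GA + EPA library was below every GA library, against 13.6% of all genes tested, and in 1 every library was above (13.9%). Without GA + EPA replicate 1 the median was -0.23, 68 members were lower and 1 higher at an unadjusted p under 0.05 (10.1% and 11.4% of all genes), and edgeR again called 0 (0.00684% of all genes), with a smallest adjusted p of 0.041. Without each of the other 5 libraries the count was lower than 19, down to 4 members without GA replicate 3 (4.49%), while the median stayed between -0.23 and -0.14.

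The 3 members with the largest decrease in fitted value among those without overlap were 2 of the S9 models and L23a. S9 KZR97526.1 (scaffold LRGB01021060.1, 46 to 256, minus strand) had 68.5, 62.5 and 66.7 CPM in GA and 49.8, 51.4 and 54.1 CPM in GA + EPA. In CPM all 3 GA + EPA libraries, replicate 1 included, were the lowest of the 15 for this model. In FPKM, GA + EPA replicate 1 (1363) lay below every GA library (1488 to 1693). It lay above the CRY libraries there (1319, 1351 and 1362). The log2 fold change of this model was -0.34 (SE 0.07, adjusted p = 0.11, edgeR). S9 KZS20413.1 had a log2 fold change of -0.27 (SE 0.08, adjusted p = 0.16, edgeR), and the other model KZS20425.1 overlapped between the diets.

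L23a (KZS07911.1, LRGB01002384.1, 674825 to 676430, minus strand) is a 60S protein at the exit of the peptide tunnel. It had 1287, 1278 and 1222 CPM in GA against 1103, 1039 and 1012 CPM in GA + EPA. The log2 fold change was -0.26 (SE 0.07, adjusted p = 0.16 with edgeR and 0.0065 with DESeq2). L10 (KZS21537.1), which completes the late 60S subunit, had 1299 ± 18.6 CPM in GA and 1084 ± 66.2 CPM in GA + EPA (SD, n = 3), and an adjusted p of 0.16 with edgeR and 0.0097 with DESeq2. The one member with a higher value in every GA + EPA library was the short L3 model KZS01594.1, at 1.21 to 1.57 CPM in GA and 2.18 to 2.62 CPM in GA + EPA (adjusted p = 0.13, edgeR).

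Members chosen for their roles lay close to the median of the list. L40 (KZS05701.1) and S27a (KZR98799.1) are made as fusions with ubiquitin, so that their genes also supply that protein. L40 had 556, 555 and 569 CPM in GA and 499, 472 and 474 CPM in GA + EPA, without overlap (log2 fold change -0.21, SE 0.07). S27a had 594 ± 2.1 CPM in GA and 525 ± 41.4 CPM in GA + EPA (SD, n = 3). S6 (KZS14240.1), a target of S6 kinase downstream of TOR, had a log2 fold change of -0.18 (SE 0.08), and S3 (KZS06747.1), at the mRNA entry of the 40S subunit, of -0.21 (SE 0.07). S14 (KZS11622.1), on the platform of the 40S subunit, gave -0.21, L5 (KZS20089.1), which carries 5S RNA into the large subunit, -0.20, and L4 (KZS17311.1) -0.20. P0 (KZS16285.1) and P2 (KZS11134.1) form the stalk that recruits translation factors. They gave -0.15 and -0.16, and for both GA + EPA replicate 1 lay within the GA range. The adjusted p-values of these 9 members were between 0.18 and 0.42 with edgeR.

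On the CY diet the values of most members were slightly higher with EPA. Of 73, 70 had a positive log2 fold change in CY + EPA against CY, and the median was 0.055, against -0.021 over all 14162 genes tested, of which 44.1% were positive. The test called 0 members and 0% of all genes with edgeR, 0 members had an unadjusted p under 0.05 (1.93% of all genes), and DESeq2 called 0 members and 0.0282% of all genes. In 3 members every CY + EPA library was above every CY library, against 3.53% of all genes. These were L4, L23a and the short L3 model KZR98885.1. L4 (LRGB01000642.1, 1366875 to 1368735, minus strand), which lines the peptide tunnel, had 2509, 2213 and 2465 CPM in CY and 2863, 2632 and 2538 CPM in CY + EPA (log2 fold change 0.16, SE 0.11, adjusted p = 1.0, edgeR). L23a had 1155 ± 53.0 CPM in CY and 1280 ± 73.9 CPM in CY + EPA (SD, n = 3; log2 fold change 0.14, SE 0.10). CY replicate 3 was the lowest of the CY libraries for most members, and without it the median of the comparison was 0.0085 and 42 of 73 members were positive. The median was 0.021 without CY + EPA replicate 1, and 0.10, 0.088 and 0.10 without CY replicate 1, CY replicate 2 and CY + EPA replicate 3.

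The median fitted EPA effect thus had opposite signs on the diets, but on CY it (0.055) was smaller than the median SE of a member (0.10). An increase on CY was therefore not established. The difference was tested itself over 12 libraries. The difference of the EPA effects, CY minus GA, was positive for 71 of 73 members, with a median of 0.24, against 0.0054 over 14816 genes. With edgeR 0 members and 0% of all genes were called, and the smallest adjusted p of a member was 0.29 (L23a, difference 0.43, SE 0.10). At an unadjusted p under 0.05 there were 28 members with a positive and 1 with a negative difference, against 4.58% and 6.21% of all genes. DESeq2 called 1 member, L23a (adjusted p = 0.0066), and 0.297% of all genes. L4 had a difference of 0.38 (SE 0.12), L5 of 0.33 (SE 0.11) and L40 of 0.31 (SE 0.11), each with an adjusted p between 0.34 and 0.38 with edgeR. The negative difference was that of the short L3 model KZS01594.1 (-1.17, SE 0.32). Without GA + EPA replicate 1, 54 members had a positive difference at an unadjusted p under 0.05 (4.46% of all genes), and without CY replicate 3 there were 8 (3.85% of all genes). The medians were 0.29 and 0.18. There were 8 without CY + EPA replicate 1 (2.93%), 13 without GA + EPA replicate 2 (3.50%) and 15 without GA + EPA replicate 3 (5.63%).

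**Figure D4:**
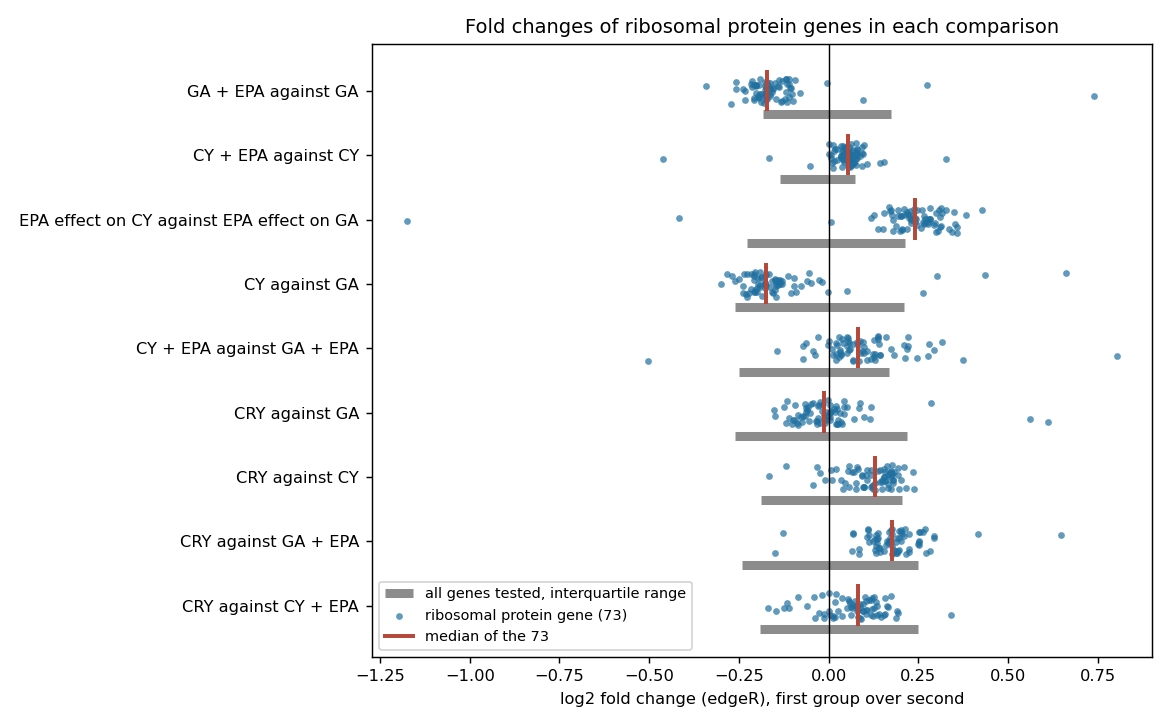
Log2 fold change (x axis, edgeR) of each of the 73 tested members (points) in the 9 comparisons (y axis), with their median (red line) and the interquartile range of all genes tested (grey bar). The members form narrow groups left of 0 for GA + EPA against GA and CY against GA (medians -0.17 each) and right of 0 for CRY against GA + EPA (0.18), and the points far from them are the 3 short L3 models, the second S12 model and the S9 model KZR97526.1.

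CY against GA compared the cyanobacterial with the green algal diet, both without EPA. Members again had lower values in CY. Of 73, 68 had a negative log2 fold change, with a median of -0.17, against -0.0016 over 14264 genes, of which 50.2% were negative. The test called 0 members, against 5.99% of all genes (181 higher and 673 lower). DESeq2 also called 0 members, against 12.6% of all genes. At an unadjusted p under 0.05, 20 members were lower and 2 higher, against 17.4% and 12.4% of all genes. In 51 members every CY library was below every GA library, against 19.6% of all genes, and in 2, the short L3 models KZR98885.1 and KZS01594.1, every CY library was above (17.5%). The interquartile range of the members' fold changes ran from -0.21 to -0.13, and that of all genes from -0.26 to 0.21. Without CY replicate 3 the median was -0.097 and 3 members were lower at an unadjusted p under 0.05 (14.2% of all genes). Leaving out GA replicate 1, 2 or 3 left 0, 1 and 2 members lower at that level (12.3%, 13.3% and 13.4% of all genes). All 13 vitellogenins of the list were called higher in this comparison (median log2 fold change 3.13).

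L28, L36 and L8, all of the large subunit, had the lowest fold changes among members without overlap. L28 (KZS12781.1, LRGB01001348.1, 59958 to 61200, minus strand) was at 900, 894 and 888 CPM in the GA libraries and at 783, 755 and 688 CPM in CY, so that the highest CY library was clearly below the lowest GA library. Its log2 fold change was -0.30 (SE 0.09, adjusted p = 0.062, edgeR), the smallest adjusted p of a member here. L36 averaged 773 ± 11.2 CPM in GA and 648 ± 50.3 in CY (SD, n = 3; log2 fold change -0.28, adjusted p = 0.082, edgeR). L8 (KZS17633.1), which lies near the site where peptide bonds form, averaged 1517 ± 16.2 CPM in GA and 1285 ± 91.3 in CY (log2 fold change -0.27, adjusted p = 0.094, edgeR).

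The members chosen for their roles differed more among themselves here. L40 had 480 ± 31.3 CPM in CY (log2 fold change -0.25, adjusted p = 0.099) and S27a 527 ± 27.4 CPM (-0.20, adjusted p = 0.14) with edgeR, both without overlap with GA. P2 (-0.24), S3 (-0.21), L5 (-0.21), S6 (-0.19) and L4 (-0.18) also had every CY library below every GA library. P0 and S14 overlapped between the diets. P0, the base of the stalk, lay at 2722, 2732 and 2659 CPM in GA and at 2925, 2547 and 2500 CPM in CY (log2 fold change -0.054, SE 0.10), and its sign turned without CY replicate 3. S14 averaged 719 ± 10.3 CPM in GA and 721 ± 52.8 in CY (SD, n = 3; log2 fold change -0.026, SE 0.09), and its sign turned under other scalings. P0 and P2 thus had different fitted values, a difference that was not tested.

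**Figure D5:**
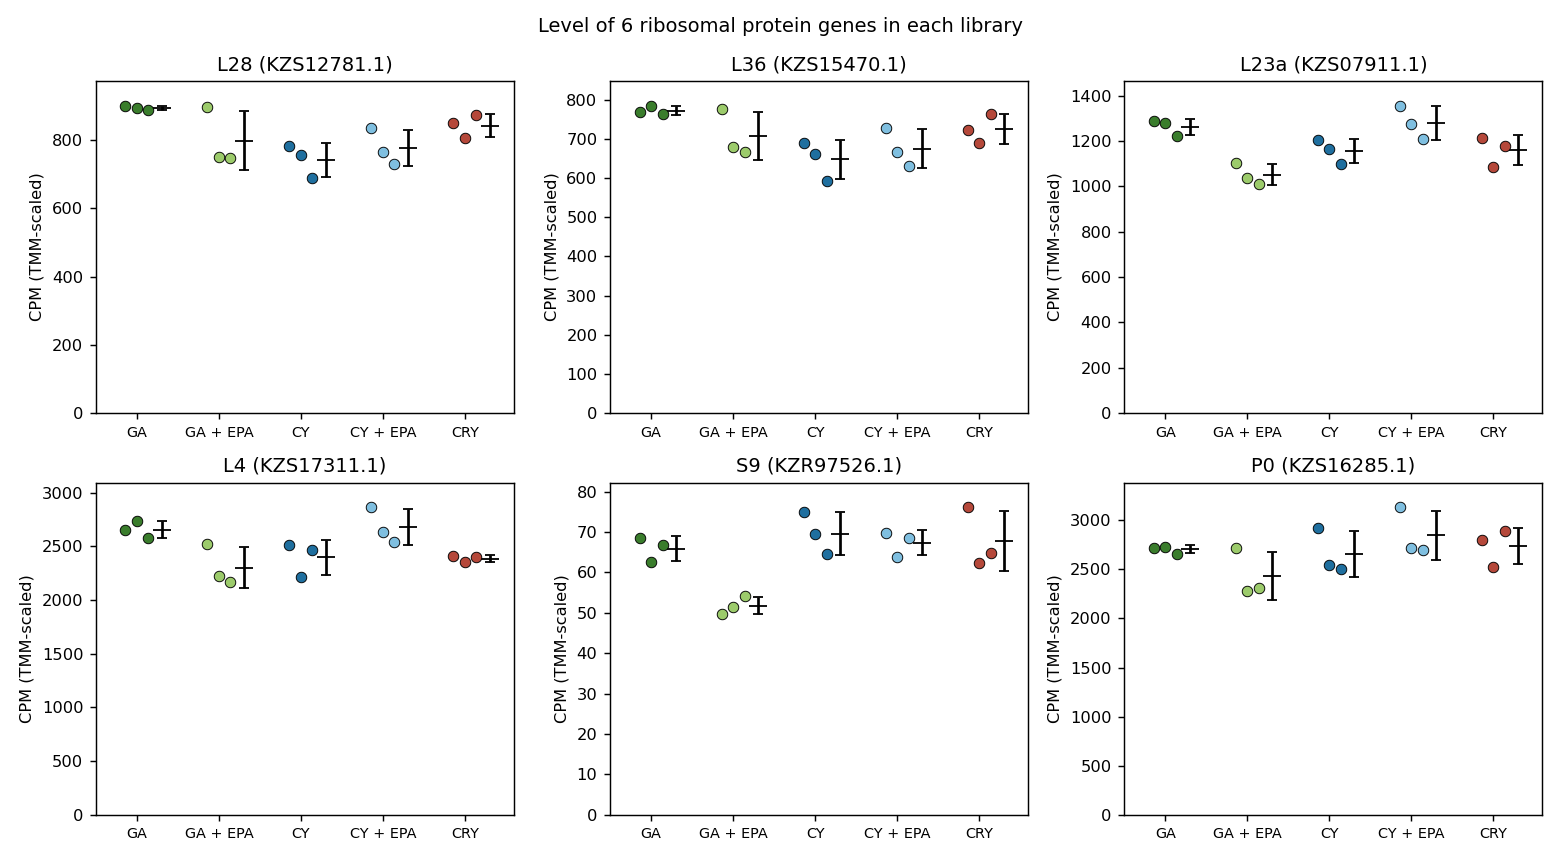
Level of 6 members in each library (CPM after TMM scaling, y axis from 0) by diet (x axis), with points for libraries and bars for the mean and SD of 3. L28 and L36 are lower in all CY libraries than in all GA libraries, L23a and S9 KZR97526.1 lower in all GA + EPA libraries than in all GA libraries, L4 higher in all CY + EPA libraries than in all CY libraries, and P0 overlaps between GA and CY.

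CRY against GA compared the food that contains EPA naturally with the green alga, and gave the most called genes of all 9 comparisons, but 0 of them were members. Of 14303 genes, 947 were called higher and 1372 lower (16.2%), whereas the members' median log2 fold change was -0.013, with quartiles at -0.064 and 0.025. By sign, 30 were positive and 43 negative. At an unadjusted p under 0.05, 3 members were higher and 4 lower, against 19.3% and 21.9% of all genes, and DESeq2 called 0 members and 20.6% of all genes. In 15 members every CRY library was below every GA library (24.7% of all genes), and in 5 above (21.4%). Both are near or below the shares of all genes. Without single libraries the median ran from -0.043 (CRY replicate 3) to 0.022 (CRY replicate 2). In these fits 0 to 5 members were higher and 0 to 6 lower at an unadjusted p under 0.05. Of all genes, 15.8% to 19.5% were higher and 18.7% to 21.5% lower at that level. The SE of a member had a median of 0.053 here, the smallest of the 9 comparisons.

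The lowest 3 of those without overlap were L4, L5 and L26. L4 had 2652, 2735 and 2575 CPM in GA and 2406, 2353 and 2399 CPM in CRY (log2 fold change -0.15, SE 0.05, adjusted p = 0.052, edgeR). L5 had 1769 ± 22.5 CPM in GA and 1593 ± 36.2 CPM in CRY (SD, n = 3; -0.15, adjusted p = 0.0501, edgeR), and L26 (KZS12604.1) had -0.12 (adjusted p = 0.10, edgeR). The highest 3 were S15a (KZS09069.1, 0.12), S29 (KZS19153.1, 0.10) and L29 (KZS18816.1, 0.088), with adjusted p-values between 0.18 and 0.25 with edgeR. S29 had 331 ± 3.87 CPM in GA and 354 ± 11.6 CPM in CRY (SD, n = 3). These 3 signs turned on the FPKM scale. The smallest adjusted p of any member, 0.049 with edgeR, was that of the short L3 model KZR98885.1, with 2.28, 2.32 and 2.72 CPM in GA and 4.32, 2.99 and 3.86 CPM in CRY (log2 fold change 0.61, SE 0.20). It was the only member at an adjusted p of up to 0.05, against 30.2% of all genes.

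In the comparisons among the diets with EPA or CY, which share libraries with those above, most members had higher values in the first-named diet after TMM scaling. On log2(FPKM + 0.1) the members' median was negative in CRY against GA + EPA (-0.026) and in CY + EPA against GA + EPA (-0.088). CRY against GA + EPA gave a median of 0.18, with 71 of 73 positive, against 0.012 over 14303 genes. The test called 0 members and 1.57% of all genes. At an unadjusted p under 0.05, 25 members were higher and 0 lower (16.1% and 14.4% of all genes), and 52 were higher without GA + EPA replicate 1 (15.8%), where the median was 0.22. The count was 1 without GA + EPA replicate 3 (11.7%), where the median was 0.11, and 2, 3 and 7 without GA + EPA replicate 2, CRY replicate 1 and CRY replicate 3 (9.76%, 12.3% and 13.2%). The smallest adjusted p was that of S9 KZR97526.1 (log2 fold change 0.42, SE 0.10, adjusted p = 0.0495, edgeR), the only one up to 0.05 (11.0% of all genes). In FPKM this model averaged 1344 in CRY and 1310 in GA + EPA. CRY against CY gave a median of 0.13 with 67 positive (0.081 without CY replicate 3), against 0.0035 over all genes. In 25 members every CRY library was above every CY library, against 10.9% of all genes. CRY against CY + EPA and CY + EPA against GA + EPA each gave a median of 0.081, with 60 and 64 positive. Over all genes the medians were 0.013 and -0.027. In CRY against CY + EPA the members' median was 0.13 without CY + EPA replicate 1 and 0.054 without CY + EPA replicate 2. It was 0.045, with 50 positive, without CY + EPA replicate 3. In CY + EPA against GA + EPA it was 0.030, with 45 positive, without CY + EPA replicate 1. Without GA + EPA replicate 1 it was 0.11, with 68 positive and 14 higher at an unadjusted p under 0.05 (11.2% of all genes). With edgeR 0 members were called in these 3, against 0%, 0.162% and 0.147% of all genes, and DESeq2 called 0 members in them and in CRY against GA + EPA, against 1.14%, 5.62%, 3.56% and 9.73%. At an unadjusted p under 0.05, in either direction, there were 3, 4 and 7 members, against 15.6%, 27.4% and 20.8% of all genes. Without single libraries there were 0 to 9, 0 to 3 and 4 to 14 members. The share of all genes in these fits was at least 7.29%, 20.3% and 13.3%. It was 27.4% where 9 members passed (CRY against CY without CY replicate 1). Where 14 passed (CY + EPA against GA + EPA without GA + EPA replicate 1) it was 25.1%.

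The scaling of the libraries bears on all these values, since the differences are small. On log2(FPKM + 0.1), which the authors' scaling to library totals fixes, the median of all genes was -0.18 in CY against GA, -0.18 in CY + EPA against GA + EPA, -0.17 in CRY against GA and -0.17 in CRY against GA + EPA. The members' medians were -0.34, -0.088, -0.19 and -0.026, so that the sign of the second and the last turned, while the members stayed below all genes in the first, near them in the third and above them in the other 2. With limma on this scale 1 member, L28, was called lower in CY against GA, against 7.65% of all genes, and 7 (L4, L5, L18a, L26, L28, S3 and S4) in CRY against GA, against 18.6%. With 1 added in place of 0.1, limma called the same numbers of members, against 7.94% and 18.7% of all genes.

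Other parts of the translation machinery give a context for these values, in lists taken by product name. Of all genes, 0% were called in GA + EPA against GA, 5.99% in CY against GA and 16.2% in CRY against GA. The proteins of the mitochondrial ribosome, 76 of 81 tested, gave a median of 0.15 on the log2 scale in CY against GA, with 69 positive and 0 called, where the cytosolic proteins had -0.17. In CRY against GA their median was 0.15, with 2 called higher (mitochondrial L41, KZS07136.1, 0.36, and mitochondrial S28, KZS20637.1, 0.40). In GA + EPA against GA it was 0.014. Proteins of ribosome biogenesis and the nucleolus (55 of 56 tested) had medians of 0.20 in CY against GA (48 positive, 0 called higher and 1 lower), 0.070 in CRY against GA (2 called lower) and 0.073 in GA + EPA against GA (0 called). RNA polymerase I, which transcribes ribosomal RNA, gave 0.13 in CY against GA over its 8 genes, none of them called there.

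Translation initiation factors (44 of 50 tested) had medians between -0.035 and 0.073 in these 3 comparisons. The only genes of that list called were named as kinases of initiation factor 2 alpha, KZS17514.1, lower in CY against GA (-1.38) and in CRY against GA (-0.67), and KZS10029.1, lower in CRY against GA (-0.31). Elongation factors (6 tested) had medians between -0.082 and -0.050, with 0 called. Cytosolic aminoacyl-tRNA synthetases, which charge tRNAs with amino acids, had a median of -0.15 in CRY against GA. There 4 of 35 were called lower, beside 1372 of all 14303 genes. These 4 were the synthetases for asparagine (KZS13955.1, -0.67), valine (KZS04808.1, -0.42), alanine (KZS15556.1, -0.37) and threonine (KZS09012.1, -0.29). Genes of TOR and S6 kinase signalling (13 of 14 tested) had medians between -0.029 and 0.028, with 0 called. Another 5 tested products named only "ribosomal protein" or 30S fell outside the rule. Among them L37 (KZS11778.1), L19 (KZS22088.1) and S30 (KZS08221.1) had -0.20, -0.16 and -0.21 in GA + EPA against GA and -0.19, -0.25 and -0.16 in CY against GA. The other 2 were 30S S11 (KZS05524.1), with -0.13 and -0.041, and a putative L20 (KZS21253.1), with 0.026 and 0.36. None of the 5 was called in either comparison.

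Whole animals hold many tissues, and lists of genes that mark some of them were read from the same fits. The shares of all genes called were 0% in GA + EPA against GA, 5.99% in CY against GA and 16.2% in CRY against GA. The 11 muscle genes had a median of -0.18 in GA + EPA against GA (0 called), -0.16 in CY against GA (1 called lower) and -0.37 in CRY against GA (6 called lower). For the opsins of the eye (15 of 21 tested) the medians were -0.28 (0 called), -1.05 (6 called lower) and -1.31 (12 called lower). The 13 vitellogenins had 1.41 in GA + EPA against GA, with 0 called, and 3.24 in CRY against GA, with 13 called higher. For the 8 genes of DNA replication and cell division the medians were 0.37, 0.20 and -0.012, with 1 called higher and 2 lower in CRY against GA and 0 in the other 2 comparisons. Trypsins and chymotrypsins (30 of 36 tested) gave -0.029, 0.021 and 0.22, with 0 called in the first comparison, 2 higher and 2 lower in the second and 9 higher and 3 lower in the last, and the 4 haemoglobins 0.34, 1.10 and 0.93, with 0, 2 and 2 called higher. The part of these tissues in the values of the ribosomal protein genes was not tested.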

How the data were processed

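Whole *D. magna* were sequenced in 15 libraries, 3 per diet. Per the labels and the study's methods, the authors used Trimmomatic for trimming, Bowtie2 for alignment to their *D. magna* reference and RSEM 1.2.31 for quantification. The expected counts the authors deposited are RSEM's estimates of read pairs per gene, not normalised. The deposited FPKM values divide them by effective length and by the library total. TPM values, also deposited, were left aside. No strand setting is given in the sources used here. The depth was 18062681 to 22287959 counts per library, and the spread between pools exceeds counting error for most members.

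Expected counts were rounded. Each comparison used only its own libraries in edgeR 4.0.16 (R 4.3.3), with filterByExpr, TMM, glmQLFit and glmQLFTest on all genes. Genes were called at a Benjamini-Hochberg adjusted p of 0.01. SE is the fold change divided by the root of F. CPM were scaled by TMM over all 15 libraries, and counts of non-overlapping libraries use these. Alternatives were RLE, DESeq2 1.42.0, other filters, all libraries in 1 fit, the replicate block, limma 3.58.1 on log2(FPKM + 0.1) and log2(FPKM + 1), TMM without the members, an adjusted p of 0.05 and each library left out. The functions were tested on simulated data. The members, lists and tests were chosen with earlier results of these data known. Named members were those called where at most 10 were, the 3 highest and 3 lowest fold changes without overlap and with a mean of at least 10 CPM in 4 comparisons, the 3 highest and 3 lowest by FPKM, copies that share a name and 9 with set roles (L4, P0, P2, S27a, L40, S6, S3, S14 and L5). No product named P1 was found. Other members named (S18, L14, L10 and the short L3 models) were picked with their values in view. The lists of vitellogenins and other tissues were made by product name. No gene identifier matched the RefSeq table, so names are those of the authors' annotation. The libraries at 20 °C were not analysed here.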

Additional observations from a re-analysis of the deposited data

How the results depend on the processing

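The 0 members called changed only in the following cases. DESeq2 called 2 in GA + EPA against GA (2.51% of all genes) and 1 in the difference of the EPA effects (0.297%). On log2(FPKM + 0.1), limma called 1 in CY against GA and 7 in CRY against GA (7.65% and 18.6% of all genes). It called the same numbers on log2(FPKM + 1) (7.94% and 18.7%). An adjusted p of at most 0.05 with edgeR gave 1 in CRY against GA (30.2% of all genes) and 1 in CRY against GA + EPA (11.0%). The medians that moved by more than the spread between libraries included those on both FPKM scales in CY against GA (-0.34), CY + EPA against GA + EPA (-0.088), CRY against GA (-0.19) and CRY against GA + EPA (-0.026). Leaving out single libraries gave medians from -0.19 to -0.097 in CY against GA and from -0.043 to 0.022 in CRY against GA. The shares were 12.5% (GA), 11.01% (GA + EPA), 9.20% (CY), 9.91% (CY + EPA) and 10.01% (CRY) of the summed FPKM. Without members whose counts were not whole they were 6.65% (GA), 5.29% (CY), 5.65% (CY + EPA) and 5.79% (CRY), and without vitellogenin counts in the total 6.38% (CY), 6.71% (CY + EPA) and 6.95% (CRY). In CRY against GA the log2 fold changes of L29 (KZS18816.1), S29 (KZS19153.1) and S15a (KZS09069.1) turned to -0.092, -0.11 and -0.052 on both FPKM scales. In CY against GA, S14 (KZS11622.1) turned to 0.0044 with RLE and with DESeq2, to 0.0034 with all 15 libraries in 1 fit and to 0.013 with TMM without the members, and ranged from -0.057 to 0.059 with 1 library left out. P0 (KZS16285.1) ranged from -0.11 to 0.012. The cause of these changes was not tested. The median in CRY against GA was 0.0023 with RLE and with DESeq2.

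Same-numbered libraries did not deviate together in every pair (correlations of -0.35 to 0.65 over genes). The highest was 0.65, for replicate 3 of GA + EPA and CY + EPA. Next came 0.52 for replicate 1 of CY and CY + EPA, and 0.51 for replicate 2 of GA + EPA and CY. Whether some libraries share a batch was not tested. With the replicate block 0 members were called in all 9 comparisons, and the medians moved by little (-0.17 in GA + EPA against GA, -0.18 in CY against GA, 0.24 for the difference of the EPA effects). With 3 pools a diet, the SE of a member's log2 fold change had a median between 0.053 and 0.12 in the 9 comparisons.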
